A study of Mus musculus with 12 samples.

Results

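The genes described here move, store and bind iron, copper and related metals in the liver: the transferrin gene Trf and the receptor genes Tfrc and Tfr2, the ferritin gene Fth1, the iron exporter Slc40a1 and the ferroxidase Cp, the hepcidin genes Hamp and Hamp2, and the metallothioneins Mt1 and Mt2. They were listed by name from their known roles, with earlier results of these data known, and are 10 of the 24062 genes in the count tables. All 10 passed the filter on low counts.

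The data were bulk RNA-seq of whole liver from 12 female C57BL/6J (B6) mice, with 6 mice per diet out of the 11 per diet of the experiment. The mice were 6 weeks old on arrival, were acclimated for 2 weeks and were all moved from chow to the control diet shortly before the start. The control group stayed on that diet, and the other group received a matched diet that delivered BIBB-515, an inhibitor of lanosterol synthase, at 55 mg per kg body weight for 10 days. Control mice carry the numbers 1 to 6 and BIBB-515 mice the numbers 6 to 11, so control mouse 6 and BIBB-515 mouse 6 are different animals. The reads counted on genes numbered 22764819 to 31058370 per mouse and did not separate the diets (two-sided exact permutation test, p = 0.123). The libraries matched their label of liver, with the albumin gene Alb at a mean of 120100 CPM (counts scaled to the size of each library) in control mice, and fat cell markers summed to at most 0.161 CPM in any mouse. Lss, which encodes the inhibited enzyme, was at 78.8 ± 47.1 CPM in control and 136 ± 26.1 CPM in BIBB-515 mice (SD, n = 6 each; log2 fold change 0.78, SE 0.29, FDR = 0.0854 by edgeR's quasi-likelihood test). Lss was called in 4 of 23 alternatives, with limma-voom (FDR = 0.0432), edgeR's likelihood ratio test (FDR = 0.0479), 1 surrogate variable (FDR = 0.000346) and without control mouse 3 (log2 fold change 1.15, FDR = 0.00266).

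Iron travels in blood bound to transferrin, which cells take up through transferrin receptors. Inside the cell it is stored in ferritin, and it leaves the cell through ferroportin, the product of Slc40a1, after which the copper enzyme ceruloplasmin oxidizes it. Hepatocytes secrete hepcidin, a peptide hormone that removes ferroportin from the cell surface, and they make metallothioneins, small proteins that bind zinc and copper. When iron is scarce, iron regulatory proteins bind a hairpin in certain transcripts, the iron responsive element. At the 5′ end of a transcript such a hairpin lets these proteins block translation, and at the 3′ end of the Tfrc transcript it protects the RNA from decay.

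That hairpin is shown first because members of different roles carry it, in ferritin, in export and in uptake. In GENCODE M21 transcripts (mm10), the pattern searched was a C, then 5 bases, CAGTG, 1 base other than G, and 5 bases that pair with the first 5 (G-T pairs allowed), on the transcript strand only. It was found in the 5′ untranslated region (UTR) of Fth1 and Slc40a1, in that of Ftl1, the partner of Fth1 in ferritin, and at 4 places in the 3′ UTR of Tfrc, and in no other member. Across the annotation, 0.110% of 20899 genes held it in a 5′ UTR and 0.461% of 21685 genes in a 3′ UTR. Capitals mark CAGTG, the conserved part of the loop. A match in letters is a description and does not show that a protein was bound.
Fth1, 5′ UTR, chr19:9982738-9982754, plus strand: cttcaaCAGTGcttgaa
Ftl1, 5′ UTR, chr7:45459785-45459801, minus strand: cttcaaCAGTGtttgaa
Slc40a1, 5′ UTR, chr1:45925471-45925487, minus strand: cagctaCAGTGttagct
Tfrc, 3′ UTR, chr16:32631225-32631241, plus strand: cggaagCAGTGccttcc
Tfrc, 3′ UTR, chr16:32631604-32631620, plus strand: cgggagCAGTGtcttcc
Tfrc, 3′ UTR, chr16:32631669-32631685, plus strand: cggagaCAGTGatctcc
Tfrc, 3′ UTR, chr16:32631716-32631732, plus strand: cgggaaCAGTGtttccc

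After BIBB-515, Fth1 was higher and Trf, Slc40a1 and Cp were lower, while Tfrc, Tfr2, Hamp, Hamp2, Mt1 and Mt2 did not pass the test. Levels are CPM on library sizes scaled by TMM, fold changes are log2 and BIBB-515 against control, and a gene was called at an FDR under 0.05, the Benjamini-Hochberg adjusted p of edgeR's quasi-likelihood test over all 12481 genes tested. Of the 10 members 4 were called, against 13.7% of all genes tested, a count that is limited by that choice. Called higher was 1 member, against 7.18% of all genes, and called lower were 3, against 6.48%. In 3 members, Fth1, Trf and Cp, the 6 BIBB-515 mice did not overlap the 6 control mice at all, which held for 7.07% of all genes tested (4.35% higher and 2.72% lower). The median log2 fold change of the members was -0.10, and that of all tested genes was -0.01.

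**Figure D1:**
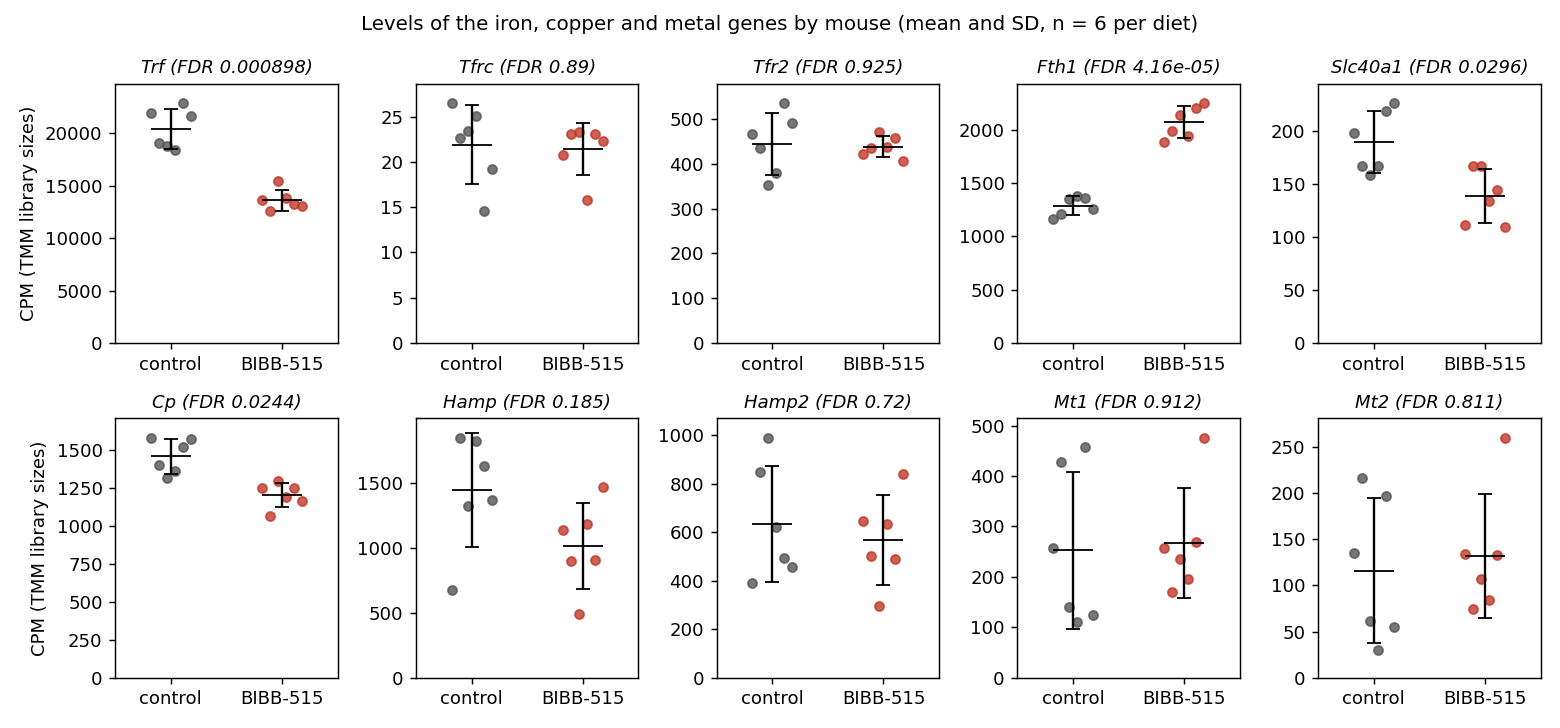
Level of each member in CPM (y axis, from 0) in the 6 control and 6 BIBB-515 mice (points), with the mean and SD as lines and the FDR of the quasi-likelihood test in each title. Fth1 sits higher in every BIBB-515 mouse (1887 to 2250 CPM) than in any control mouse (1163 to 1376 CPM), Trf and Cp sit lower in every one, and the points of the other members mix.

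Trf (chr9:103208876-103230286, minus strand) encodes the plasma iron carrier and was the most abundant member. In control mice it ranged from 18370 to 22920 CPM with a median of 20350, and in BIBB-515 mice from 12570 to 15480 CPM with a median of 13450. Every BIBB-515 mouse was below every control mouse. The means were 20450 ± 1927 and 13640 ± 1007 CPM (SD, n = 6 each), a log2 fold change of -0.58 (SE 0.09, FDR = 0.000898). As a share of all counts on genes, Trf took 2.00% in control and 1.39% in BIBB-515 mice. All 17 of its exons were lower in mean CPM, by log2 ratios of -0.68 to -0.39, and in 9 of them, the 9 nearest the 3′ end, the diets did not overlap. Of 5 hepatocyte markers, 2 were called lower and 0 higher. These were Alb, the gene of serum albumin, at a log2 fold change of -0.40 (SE 0.10, FDR = 0.0129) and Ttr, which encodes the plasma carrier transthyretin, at -0.49 (SE 0.09, FDR = 0.00391), while Apoa1, Tat and Hnf4a did not pass. The 5 markers summed to 133500 to 150200 CPM in control and 98610 to 114100 CPM in BIBB-515 mice. Alb made up most of these sums, at a mean of 120100 CPM in control and 90920 CPM in BIBB-515 mice. The part of the hepatocyte markers in the Trf difference was not tested. In bulk liver fewer cells of a type and less RNA per cell cannot be told apart.

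The receptors did not pass the test. Tfrc (chr16:32608896-32632794, plus strand), the receptor that most cells use for transferrin-bound iron, was the scarcest member, at 14.5 to 26.5 CPM (median 23.1) in control and 15.8 to 23.3 CPM (median 22.7) in BIBB-515 mice. The log2 fold change was -0.04 (SE 0.13, FDR = 0.890). The control mice spanned the BIBB-515 mice completely. Of its 19 exons only 3 reached a mean of 1 CPM, and the last, which holds the 4 hairpins printed above, carried most of the reads, at 16.0 CPM in control and 15.8 CPM in BIBB-515 mice.

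Tfr2 (chr5:137569840-137588081, plus strand), the receptor through which hepatocytes sense transferrin iron, ranged from 353 to 536 CPM (median 452) in control and from 407 to 471 CPM (median 436) in BIBB-515 mice. The log2 fold change was -0.02 (SE 0.10, FDR = 0.925). Here too the BIBB-515 mice all lay inside the control range. Of 22 exon rows at or above 1 CPM, 13 had a higher and 9 a lower mean, although some rows overlap each other and share reads. Per length, in CPM per kilobase of exon (RPKM), Tfr2 stood above Tfrc in every mouse, by 19.3 to 47.2 times in control and 23.4 to 35.4 times in BIBB-515 mice.

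Fth1 (chr19:9980600-9985111, plus strand) encodes the heavy chain of ferritin, which carries its ferroxidase activity. It ranged from 1163 to 1376 CPM (median 1304) in control and from 1887 to 2250 CPM (median 2064) in BIBB-515 mice. The lowest BIBB-515 mouse was well above the highest control mouse. The means were 1286 ± 90.0 and 2068 ± 149 CPM (SD, n = 6 each), a log2 fold change of 0.69 (SE 0.08, FDR = 4.16e-05), or 1.61-fold. All 5 exon rows at or above 1 CPM were higher without overlap, by log2 ratios of 0.64 to 0.76, although 2 of these rows overlap each other and share reads. Of the 3654 50-base words of all Fth1 transcripts in GENCODE, 58 (1.59%) also occur in another gene. These transcripts hold more sequence than the 1511 bases counted here, so the share of reads lost to copies was not measured.

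Ftl1, the light chain, rose with it. It was at 2239 ± 334 CPM in control and 3741 ± 229 CPM in BIBB-515 mice (SD, n = 6 each; log2 fold change 0.74, SE 0.10, FDR = 0.00031), also without overlap. Of its 50-base words 48.2% also occur in other genes, among them processed copies, so its level is uncertain. Per length, the ratio of Fth1 to Ftl1 was 0.338 to 0.449 in control and 0.345 to 0.366 in BIBB-515 mice, so the ranges of the ratio overlapped while both levels did not. The annotated length of Fth1 includes bases without reads, as given below. The size of the ratio depends on that length, while its comparison between the diets does not.

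Slc40a1 (chr1:45908070-45925594, minus strand) encodes ferroportin, the only known cellular iron exporter of mammals. Like Fth1 it carries a 5′ hairpin, but it moved the other way. It ranged from 159 to 227 CPM (median 183) in control and from 109 to 167 CPM (median 139) in BIBB-515 mice. The diets overlapped, with 4 of 6 BIBB-515 mice below the lowest control mouse. The means were 190 ± 29.2 and 139 ± 25.5 CPM (SD, n = 6 each), a log2 fold change of -0.45 (SE 0.13, FDR = 0.0296). All 8 exons were lower in mean CPM, from -0.13 to -0.53 in log2 ratio, but none without overlap. Without any 1 of control mice 1, 5 and 6 or BIBB-515 mice 6, 9, 10 and 11 the FDR was 0.0516 to 0.0641, and with only the exons towards the 5′ end, which hold few of its reads, the log2 fold change was -0.31 (FDR = 0.32). Kupffer cells, the liver macrophages that also express ferroportin, had 0 of 6 tested markers called by edgeR's quasi-likelihood test and 0 at an unadjusted p under 0.05. The log2 fold changes of these markers ran from -0.73 (Marco, SE 0.54) to 0.18 (Cd5l, SE 0.21), with 3 of them above 0. The markers summed to 323 to 534 CPM in control and 329 to 571 CPM in BIBB-515 mice. The part of Kupffer cells in the Slc40a1 difference was not tested.

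Cp (chr3:19957054-20009750, plus strand), which encodes the copper-carrying ferroxidase ceruloplasmin, ranged from 1316 to 1580 CPM (median 1458) in control and from 1067 to 1292 CPM (median 1217) in BIBB-515 mice. No BIBB-515 mouse reached the lowest control mouse, although the gap was narrow. The means were 1457 ± 113 and 1201 ± 80.5 CPM (SD, n = 6 each), a log2 fold change of -0.28 (SE 0.08, FDR = 0.0244). The call was lost with no filter on low counts (FDR = 0.0523), without any 1 of control mice 1 and 6 or BIBB-515 mice 7, 9 and 11 (FDR = 0.0524 to 0.058), and with only the exons towards the 5′ end (log2 fold change -0.27, FDR = 0.232). Of 22 exon rows at or above 1 CPM, all 22 had a lower mean, although some of these rows overlap each other and share reads. The last 2 of them, used by alternative 3′ ends, were nearly level, with log2 ratios of -0.02 and -0.00 at 2.23 and 5.14 CPM in control mice. This end of Cp lies within Hps3, annotated on the opposite strand, and without strand in the counting the reads of the 2 genes there cannot be told apart.

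**Figure D2:**
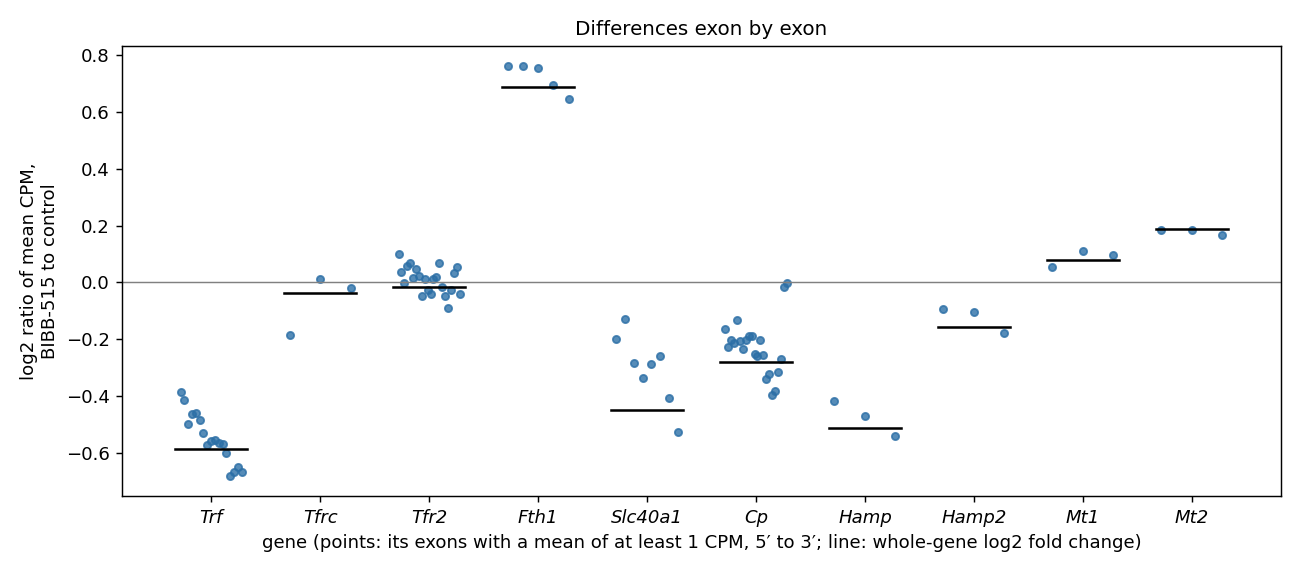
Log2 ratio of mean CPM, BIBB-515 to control (y axis), for every exon row with a mean of at least 1 CPM (points, ordered 5′ to 3′ within each gene), with the whole-gene log2 fold change as a black line. All 17 Trf exons lie below 0 and all 5 Fth1 rows above it, the Tfr2 exons scatter around 0, and in Trf, Slc40a1, Hamp, Hamp2 and Fth1 the exons lie lower towards the 3′ end.

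In several members the log2 ratios of single exons fell towards the 3′ end. This was seen in Trf, less evenly in Slc40a1 and in the first 20 rows of Cp, in Hamp (-0.42, -0.47 and -0.54) and Hamp2 (-0.09 to -0.18), and also in Fth1, where the ratios stayed positive (0.76 to 0.64). The balance of reads between the exons of the 3′ and the 5′ side of genes, as the median log2 ratio over 3921 genes of at least 6 exons, was 1.19 to 1.68 in control and 1.17 to 1.53 in BIBB-515 mice. These ranges overlapped, with medians of 1.29 in both diets. With only the exons of the 5′ side Trf and Fth1 kept their calls, Trf at a log2 fold change of -0.55, and Slc40a1 and Cp lost theirs, as given above.

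Hamp and Hamp2 are neighbouring copies on chr7, and their promoters are shown because the genes share most of this sequence. The windows run from 250 bases before to 30 after the start of the RefSeq transcript (mm10), and the 2 are identical at 257 of 283 aligned positions (90.8%). In capitals are GGCGCC, the core of the element through which bone morphogenetic protein (BMP) signals act on Hamp, and TTCNNNGAA, the STAT factor motif. Both were searched on both strands. Hamp held 1 match of each, starting 109 and 97 bases before the start, and Hamp2 held the STAT match, 94 bases before its start, and not the letters GGCGCC in this window. Of 32851 mouse promoter windows of 300 bases, 11.9% held GGCGCC and 8.30% TTCNNNGAA.
Hamp, chr7:30944000-30944279, minus strand: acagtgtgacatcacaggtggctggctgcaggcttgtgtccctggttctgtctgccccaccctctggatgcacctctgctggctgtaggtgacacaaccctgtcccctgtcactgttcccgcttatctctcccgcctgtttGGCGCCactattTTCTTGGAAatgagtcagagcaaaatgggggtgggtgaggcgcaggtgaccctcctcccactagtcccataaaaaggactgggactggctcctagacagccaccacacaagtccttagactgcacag
Hamp2, chr7:30924152-30924431, minus strand: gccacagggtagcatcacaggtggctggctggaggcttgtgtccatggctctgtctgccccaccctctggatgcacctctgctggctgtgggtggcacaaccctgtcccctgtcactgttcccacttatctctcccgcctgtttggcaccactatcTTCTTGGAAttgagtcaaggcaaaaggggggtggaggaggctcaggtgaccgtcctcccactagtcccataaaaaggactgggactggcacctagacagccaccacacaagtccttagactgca

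Hamp (chr7:30942369-30944017, minus strand), the gene of the active hormone in mice, ranged from 675 to 1846 CPM (median 1495) in control and from 490 to 1464 CPM (median 1018) in BIBB-515 mice. Control mouse 1 and BIBB-515 mouse 8 were the lowest of their diets, and only 1 of 6 BIBB-515 mice was above the control mean. The means were 1443 ± 436 and 1012 ± 330.1 CPM (SD, n = 6 each), a log2 fold change of -0.51 (SE 0.25, FDR = 0.185). This value was larger than that of Slc40a1, but its error was also wider. The coefficient of variation of Hamp between mice was 30.2% in control and 32.6% in BIBB-515 mice, against 9.42% and 7.39% for Trf.

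Hamp2 (chr7:30922372-30924181, minus strand) ranged from 389 to 990 CPM (median 559) in control and from 295 to 840 CPM (median 567) in BIBB-515 mice. The log2 fold change was -0.16 (SE 0.25, FDR = 0.720). The ranges overlapped almost completely, and leaving out control mouse 3, the highest, gave a log2 fold change of 0.02. Of the 50-base words of the Hamp and Hamp2 transcripts, 16.6% and 11.2% are shared between the 2 genes. Reads lying only in these stretches could not be assigned to 1 of them. The deposited counts of primary alignments differed from the counts used here by at most 36 reads in Hamp and 37 in Hamp2 (0.071% and 0.158%).

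The ratio of Hamp2 to Hamp per length was steadier in BIBB-515 mice, at 0.483 to 0.543 (median 0.508, coefficient of variation 4.25%), than in control mice, at 0.274 to 0.675 (median 0.362, coefficient of variation 37.7%). Among controls it was highest in mouse 3 and lowest in mouse 5, and the range of the BIBB-515 mice lay within that of the controls. Across BIBB-515 mice the levels of both genes followed each other (Pearson r = 0.995, exact permutation p = 0.00556, adjusted 0.00741, n = 6; Spearman rho = 0.886, exact permutation p = 0.0333, adjusted 0.0444), also without the 2 mice farthest from the median of Hamp (r = 0.983). Across control mice the relation did not pass (Pearson r = 0.54, exact permutation p = 0.269, adjusted 0.269, n = 6; Spearman rho = 0.429, exact permutation p = 0.419, adjusted 0.419), and without the 2 farthest mice r was -0.289. The difference between the diets in this relation was not tested.

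**Figure D3:**
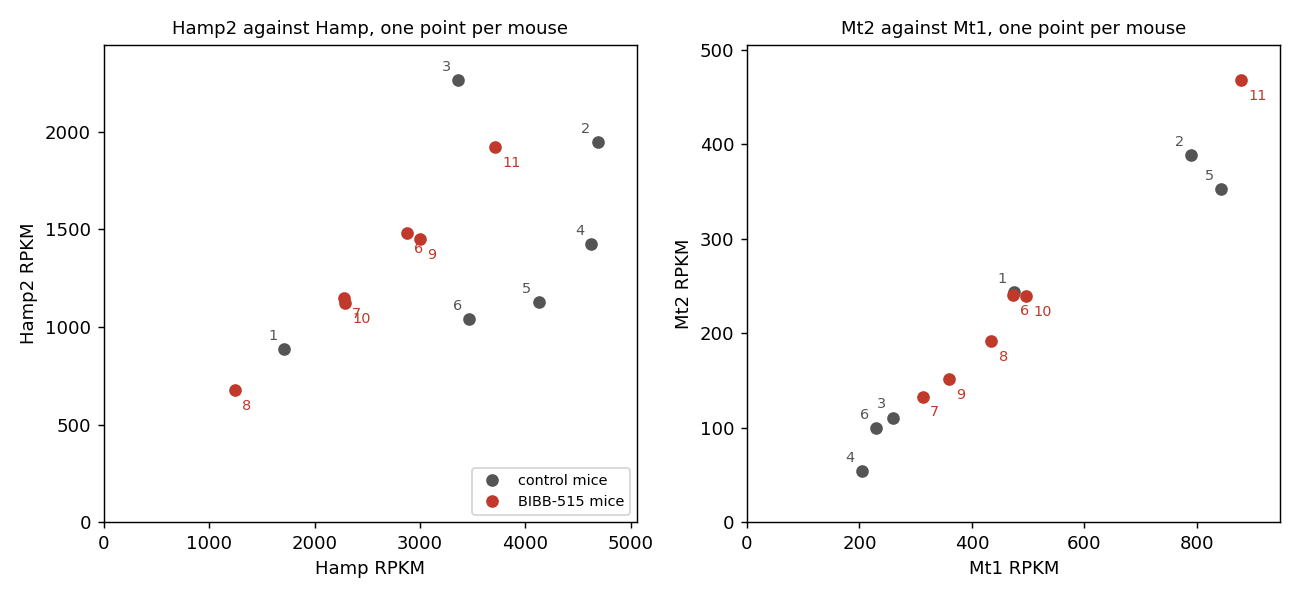
Level per length (RPKM) of Hamp2 against Hamp (left) and of Mt2 against Mt1 (right), with 1 point per mouse labelled by its number, grey for control and red for BIBB-515. The Hamp2 to Hamp ratio runs from 0.483 to 0.543 in the BIBB-515 mice and from 0.274 to 0.675 in the controls, and Mt2 follows Mt1 in both diets.

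The metallothionein genes Mt1 and Mt2 lie side by side on chr8, and zinc induces them through MTF1, which binds metal response elements (MRE). Their promoter windows are shown as a description of this element. A match in letters does not show that MTF1 was bound, and its part in the levels of either gene was not tested. Capitals mark the MRE core, searched as TGCACNC or TGCGCNC on both strands. Mt1 held 3 matches, the first starting 23 bases before the RefSeq start and the others after it, at transcript bases 3 and 21. Mt2 held 4, starting 223, 128 and 50 bases before its start and at transcript base 5. Of the 32851 windows of 300 bases, 25.7% held at least 1 and 1.97% at least 3. Sequence beyond these windows, which follow the annotated start, was not searched, so the matches may not be all MREs of either promoter. The windows themselves are only 46.6% identical (139 of 298 aligned positions).
Mt1, chr8:94178839-94179118, plus strand: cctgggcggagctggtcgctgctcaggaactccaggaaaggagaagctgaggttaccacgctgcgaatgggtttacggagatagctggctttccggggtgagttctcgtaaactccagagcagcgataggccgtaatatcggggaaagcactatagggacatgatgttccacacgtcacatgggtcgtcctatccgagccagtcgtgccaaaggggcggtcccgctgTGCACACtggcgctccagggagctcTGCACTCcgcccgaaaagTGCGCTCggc
Mt2, chr8:94172368-94172647, plus strand: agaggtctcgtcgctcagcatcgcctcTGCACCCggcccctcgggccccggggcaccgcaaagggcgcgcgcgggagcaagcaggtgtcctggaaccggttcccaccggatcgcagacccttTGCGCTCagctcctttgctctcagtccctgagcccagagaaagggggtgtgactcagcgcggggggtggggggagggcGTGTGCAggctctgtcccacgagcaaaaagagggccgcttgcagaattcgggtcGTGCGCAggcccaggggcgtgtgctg

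Mt1 (chr8:94179089-94180327, plus strand) ranged from 111 to 457 CPM (median 199) in control and from 170 to 476 CPM (median 246.0) in BIBB-515 mice. Mt2 (chr8:94172618-94173567, plus strand) ranged from 30.01 to 216 CPM (median 98.6) in control and from 74.0 to 260.1 CPM (median 119.9) in BIBB-515 mice. Control mice 2 and 5 and BIBB-515 mouse 11 were high in both genes, control mouse 4 was low in both, and the diets overlapped. The log2 fold changes were 0.08 for Mt1 (SE 0.36, FDR = 0.912) and 0.19 for Mt2 (SE 0.43, FDR = 0.811). These were the widest errors of any member, with coefficients of variation of 61.6% and 40.9% for Mt1 and 67.9% and 51.1% for Mt2 in control and BIBB-515 mice. Without BIBB-515 mouse 11 both turned, to -0.17 for Mt1 and -0.12 for Mt2.

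Within each diet Mt2 followed Mt1. In control mice Pearson's r was 0.969 (exact permutation p = 0.00278, adjusted 0.00556, n = 6) and Spearman's rho 0.943 (exact permutation p = 0.0167, adjusted 0.0333), and in BIBB-515 mice r was 0.995 and rho 0.943 with the same p-values (exact permutation). Without the 2 mice farthest from the median of Mt1, r was 0.953 in control and 0.981 in BIBB-515 mice. The ratio of Mt2 to Mt1 per length was 0.264 to 0.515 in control and 0.421 to 0.533 in BIBB-515 mice. The adjusted values cover the 4 relations computed, each hepcidin or metallothionein pair in each diet.

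The genes whose mouse-to-mouse pattern was most like that of Mt1, by Pearson's r of deviations from the diet means over 12 mice and 11169 genes, were Mt2 (0.975), Emc8 (0.91) and Hpd (0.908). For Hamp they were Zswim7 (0.953), Angptl4 (0.931) and Dda1 (0.923). Hamp2 was not among these. The 12 points share diet means and library scaling, and of these genes only Zswim7 was called between the diets (log2 fold change 0.38, SE 0.10, FDR = 0.0207).

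Per length, the order of the members in control mice was Trf (8769 RPKM), Hamp (3662), Hamp2 (1449), Fth1 (851), Mt1 (467), Cp (233), Mt2 (208), Tfr2 (116), Slc40a1 (56.1) and Tfrc (4.46). Trf ranked 6 among all genes in the tables and Hamp ranked 15. The ranges of neighbours were separate only between Trf and Hamp, between Tfr2 and Slc40a1 and between Slc40a1 and Tfrc. In BIBB-515 mice Fth1, at 1369 RPKM, stood beside Hamp2, at 1299 RPKM, with overlapping ranges, and Trf still led at 5847 RPKM. These places depend on the annotated lengths. That of Fth1, 1511 bases, includes an exon row of 291 bases at 0.0 CPM in control mice. It also includes a row of 616 bases with the same control mean, 204.7 CPM, as the 338-base row inside it. The level of Fth1 per length is therefore understated. So is that of Cp, whose last rows, of 1060 and 1211 bases, carried few reads.

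The surrounding pathways were described with 9 lists of 123 genes, of which 115 were tested. In these, 16 genes were called higher and 8 lower, against the 7.18% and 6.48% of all genes given above, and the median log2 fold change was -0.00. Iron storage and the control of iron regulatory proteins (9 genes, 8 tested) had 2 called higher and 0 lower: Ftl1, described above, and Aco1, which encodes iron regulatory protein 1 and cytosolic aconitase (241 to 306 CPM in mean, log2 fold change 0.35, SE 0.06, FDR = 0.002).

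Mitochondrial iron and iron-sulfur cluster genes (18 genes, 17 tested) had 5 called higher and 0 lower. The mitochondrial iron importers Slc25a37 and Slc25a28, also known as mitoferrins, had log2 fold changes of 0.74 (SE 0.11, FDR = 0.000801) and 0.52 (SE 0.08, FDR = 0.00063). Glrx5 and Hscb, which take part in cluster transfer, had 0.40 (SE 0.06, FDR = 0.000601) and 0.42 (SE 0.09, FDR = 0.0061), and the transporter Abcb8 had 0.18 (SE 0.06, FDR = 0.0409), a call that was lost in 12 of 23 alternatives. All but Abcb8 were higher in every BIBB-515 mouse than in any control mouse, which held for 4.35% of all genes tested. The median over the 17 was 0.09.

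Import and reduction of iron and heme (11 genes, 10 tested) had 1 called higher and 3 lower. Slc48a1, which carries heme out of lysosomes, was at 42.4 CPM in control and 67.0 CPM in BIBB-515 mice (log2 fold change 0.66, SE 0.07, FDR = 5.62e-05). Slc39a14, the hepatocyte importer of iron not bound to transferrin, was at 299 and 216 CPM (log2 fold change -0.47, SE 0.07, FDR = 0.000893), and the metalloreductases Steap4 and Steap2 had log2 fold changes of -0.44 (SE 0.08, FDR = 0.00263) and -0.44 (SE 0.13, FDR = 0.0402), with the Steap2 call lost in 10 of 23 alternatives. No BIBB-515 mouse overlapped the controls for Slc48a1, Slc39a14 and Steap4. Of all genes tested, 4.35% were higher and 2.72% lower without overlap.

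Hepcidin control by BMP and SMAD (18 genes, 17 tested) had 1 called higher and 1 lower. Hfe, which encodes a partner of the transferrin receptors in iron sensing, was at 42.6 ± 3.40 CPM in control and 65.1 ± 3.88 CPM in BIBB-515 mice (SD, n = 6 each; log2 fold change 0.61, SE 0.06, FDR = 3.07e-05), without overlap. Acvr2a, an activin and BMP receptor, was lower (log2 fold change -0.31, SE 0.08, FDR = 0.0224). The remaining 15 genes did not pass, as was the case for Hamp. With the called genes included, 6 of the 17 had an unadjusted p under 0.05 in the quasi-likelihood test. Of all 12481 genes tested, 3713 did. The number called in this list depended on the method, with 5 by DESeq2, 6 with 1 surrogate variable, 4 without control mouse 4 and 1 without BIBB-515 mouse 7 or 8 or with only the exons of the 5′ side.

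STAT3 signalling and the acute phase, which also act on Hamp, had 2 called higher and 2 lower of 17 tested. The acute phase genes Orm2 and Lcn2, the latter encoding a protein that binds iron-carrying siderophores, had log2 fold changes of 1.17 (SE 0.15, FDR = 0.000162) and 1.20 (SE 0.28, FDR = 0.0127), although 22.7% of the 50-base words of Orm2 are shared with its relatives. Apcs and Fgb, also acute phase genes of this list, were lower, at -0.74 (SE 0.12, FDR = 0.00151) and -0.33 (SE 0.10, FDR = 0.0376). The Fgb call was lost in 11 of 23 alternatives. The median of the list was -0.21.

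Copper handling (13 genes, 12 tested) had 1 called higher, Atox1, a copper chaperone (log2 fold change 0.29, SE 0.08, FDR = 0.0258), and 0 lower, with 0 to 2 genes of this list called across the alternatives. Zinc and manganese handling (20 genes, 18 tested) had 2 called higher, the transporters Slc39a4 (0.40, SE 0.08, FDR = 0.00461) and Slc39a11 (0.49, SE 0.06, FDR = 0.000134), and 2 lower, the zinc exporter Slc30a1 (-0.36, SE 0.09, FDR = 0.0204) and the manganese exporter Slc30a10 (-0.79, SE 0.185, FDR = 0.0118), all as log2 fold changes. Slc30a1, a known target of MTF1 like Mt1 and Mt2, was called lower while neither metallothionein was called. Glucocorticoid-responsive genes (10 tested), listed because glucocorticoids also induce metallothioneins, had 0 called by edgeR's quasi-likelihood test. Of these, 1 had an unadjusted p under 0.05, and 1 was called by DESeq2, by edgeR's likelihood ratio test, with 1 surrogate variable and without control mouse 2 or BIBB-515 mouse 10. Targets of NRF2 (7 genes, 6 tested), a factor that also acts on ferritin genes, had 2 called higher, Nqo1 (0.74, SE 0.16, FDR = 0.00636) and Srxn1 (0.65, SE 0.09, FDR = 0.000486), and 0 lower.

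**Figure D4:**
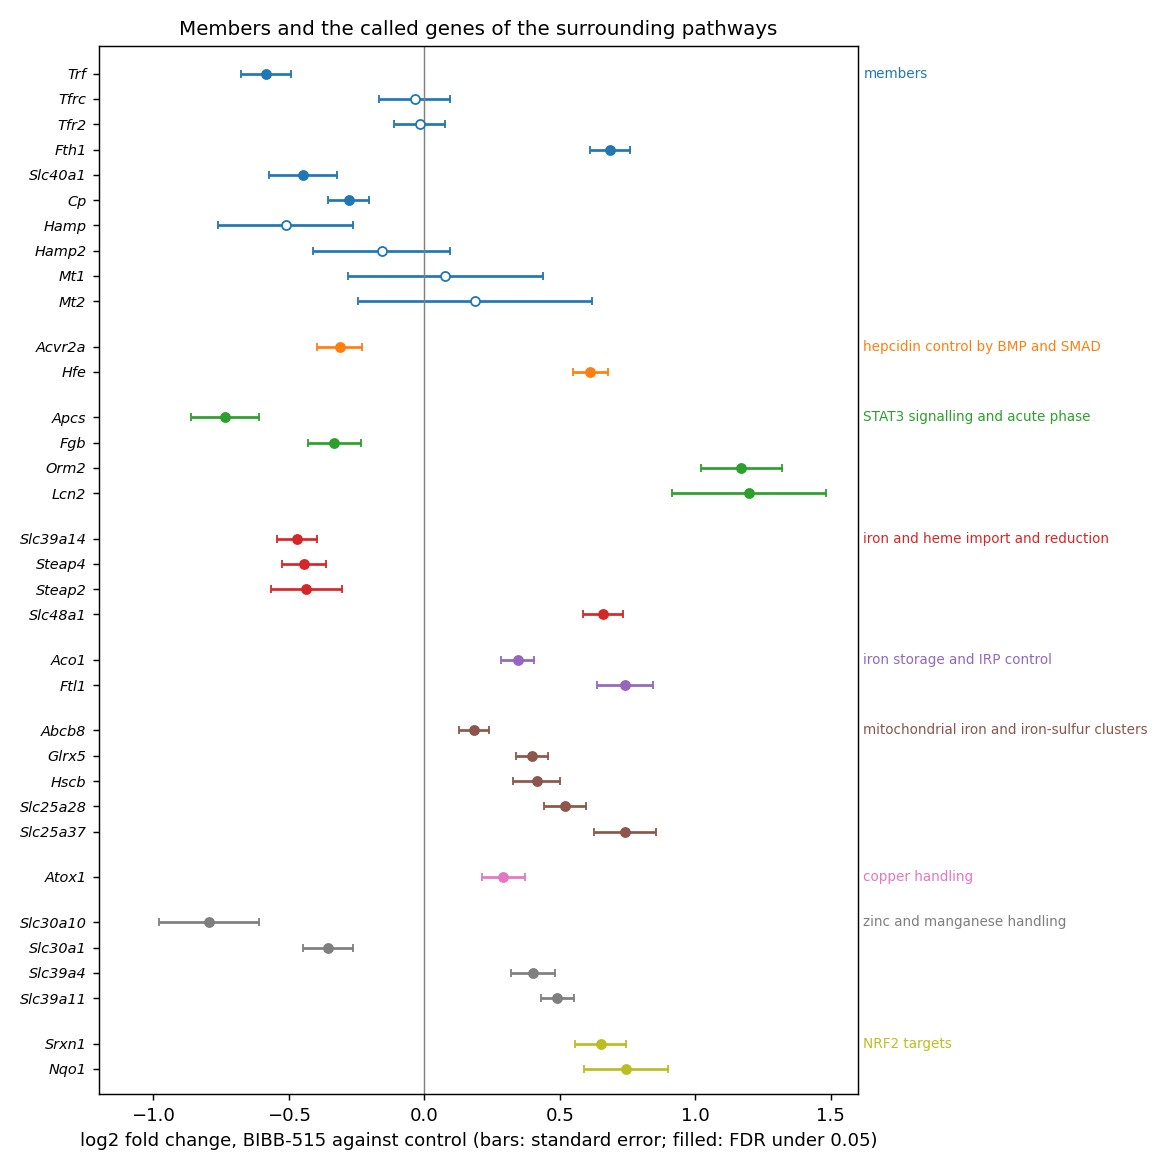
Log2 fold change, BIBB-515 against control (x axis), of the 10 members and of the 24 called genes of the 9 pathway lists (8 lists hold one), with bars of 1 standard error and filled points for an FDR under 0.05. Fth1 lies at 0.69 among the members, beside Trf at -0.58, Slc40a1 at -0.45 and Cp at -0.28, and all called storage and mitochondrial genes lie to the right of 0.

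Markers of other cells of the liver were counted in the same libraries. In the tables used here all 6 globin genes listed had 0 counts in every mouse, and these tables leave out reads with several possible origins. In the deposited tables of primary alignments Hbb-bs was at 57.1 to 157 CPM in control and 42.6 to 91.9 CPM in BIBB-515 mice, overlapping. Alas2, the erythroid enzyme of heme synthesis and the only one of 8 erythroid markers tested, had a log2 fold change of -0.16 (SE 0.13, FDR = 0.468). Of the 6 stellate cell markers 2, Lrat and Dcn, were called lower (log2 fold changes -0.81 and -0.27), with summed levels of 487 to 607 CPM in control and 456 to 514 CPM in BIBB-515 mice. The markers of sinusoidal endothelium (6 tested), bile duct (5) and lymphocytes (3) had 0 called by the quasi-likelihood test of edgeR, with 1 of them, a bile duct marker, at an unadjusted p under 0.05. The part of these cells in the members' differences was not tested.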

How the data were processed

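RNA from flash-frozen liver of 6 control and 6 BIBB-515 mice was sequenced. The authors deposited raw counts of reads per gene for each mouse. Per the file headers, featureCounts 1.6.3 assigned reads to the exons of a UCSC mm10 annotation without regard to strand, and left out reads with several alignments or on several genes. The submitters' processing notes also name STAR 2.5.3a. The library preparation is not given in the sources used here. The deposited counts per exon were used for the exon comparisons, counts of primary alignments as an alternative, and counts per transcript not at all.

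A gene was kept if 2 or more of the 12 mice reached 1 CPM (12481 of 24062 genes). Library sizes were scaled by TMM, and diet was tested in edgeR 4.0.16 (R 4.3.3; quasi-likelihood test) without other terms, with Benjamini-Hochberg adjustment over all kept genes. The script was tested on simulated data first. RPKM used the length column of the tables. Diets came from the labels, which give no batch and pair no animals, so p-values measure the spread between mice. The paper reports several mice per cage, and the labels name no cages, so shared cages could not be accounted for. Every pair of libraries of 1 diet differed by more than sampling noise (chi-square per degree of freedom at least 12.7), and the common biological coefficient of variation was 0.143. Relations across mice were tested by exact permutation (720 pairings). Sequences were read from GENCODE M21 and RefSeq, which gave promoters for Hamp, Hamp2, Tfrc, Tfr2, Fth1, Cp, Mt1 and Mt2. Named genes are the 10 members, pathway genes with an FDR under 0.05 (at most 6 a list), the 3 genes most like Mt1 and Hamp (mean log2 CPM at least 1), Lss, and markers. Members and lists were chosen with earlier results of these data known. Alternatives were DESeq2 1.42.0, RLE and upper-quartile factors, limma-voom (limma 3.58.1), edgeR's likelihood ratio test, 2 other filters, the primary-alignment tables, 1 surrogate variable (sva 3.50.0), each mouse left out, and, added after seeing the data, only the exons of the 5′ or of the 3′ side of each gene.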

Additional observations from a re-analysis of the deposited data

Results flagged for a closer look

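In 3 of the 22 groups of 6 mice examined (10 members and the library total, in each diet), 1 mouse stood apart from its group beyond Dixon's 95% critical value of 0.625 for the gap to the nearest mouse as a share of the whole range. Chance flags about 1 in 20 groups, or 1.1 here. For Tfrc, BIBB-515 mouse 9 was lowest at 15.8 CPM, with a gap share of 0.671. For Mt1 and Mt2, BIBB-515 mouse 11 was highest at 476 and 260.1 CPM, with gap shares of 0.677 and 0.678. The metallothioneins vary together, so these are 1 observation rather than a pair of independent ones. Without BIBB-515 mouse 11 the log2 fold changes were -0.17 for Mt1 and -0.12 for Mt2, neither called, and without BIBB-515 mouse 9 that of Tfrc was 0.04, also not called.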

How the results depend on the processing

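No paired analysis was possible because the diets share only the replicate number 6. Each result was recomputed under 23 alternatives, 12 of them leaving out 1 mouse. Fth1 and Trf kept their direction and call in all 23, with log2 fold changes of 0.66 to 0.72 for Fth1 and -0.62 to -0.54 for Trf, and Hamp kept its direction without being called in any (-0.66 to -0.37). The count of members called was 4, with 2 to 4 when 1 mouse was left out. It was 2 without control mouse 1 or 6 or BIBB-515 mouse 9 or 11, where Slc40a1 and Cp both missed the threshold. The count over all tested genes was 1705, with 1199 to 1865 when 1 mouse was left out and 461 to 2407 otherwise, and that of pathway genes 24, with 19 to 27 and 14 to 36. With only the exons of the 5′ side, an alternative chosen after seeing the data that leaves fewer reads, 461 genes, 2 members and 14 pathway genes were called. Of the 24 called pathway genes 14 kept their call in all 23 alternatives and 0 reversed. Abcb8 was called in only 4 of the 12 fits that leave out 1 mouse, Fgb in 3, Steap2 in 4, and Acvr2a and Atox1 in 9 each. Aco1, Slc30a1, Slc30a10 and Steap4 lost their call only with the exons of the 5′ side. Hscb lost its call with the exons of the 5′ side (FDR = 0.111) and also with those of the 3′ side (FDR = 0.196).

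Members that were not called changed sign when 1 mouse was left out: Hamp2 (-0.303 to 0.024), Tfrc (-0.121 to 0.0373), Tfr2 (-0.0663 to 0.0514), Mt1 (-0.168 to 0.34) and Mt2 (-0.123 to 0.464). Tfr2 also did so with only the exons of the 3′ side (0.000457). The cause was not tested. With 6 mice per diet, the errors of Mt1, Mt2, Hamp and Hamp2 (SE 0.25 to 0.43) limit what could be seen in them, and depth limits the exons of Tfrc.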
